A study of Mus musculus with 16 samples.

Results

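The response to bleomycin was compared between lungs of IL-31RA knockout mice and lungs of their wildtype littermates, by asking for every gene whether its change with bleomycin differed between the genotypes. All 16380 listed genes and all 16 libraries of the series entered this comparison, so no gene was chosen by its values. The 4 groups were knockout mice given bleomycin (KO-Bleo), knockout mice given saline (KO-Sal), wildtype mice given bleomycin (WT-Bleo) and wildtype mice given saline (WT-Sal), with 4 libraries each. All mice had a C57BL/6 background and were between 10 and 18 weeks old. The study used both sexes, but each of the 16 libraries held Xist, an RNA of female cells. Bleomycin, a DNA-breaking drug that injures the lung and brings on fibrosis, was injected intradermally, 6 U/kg on 5 days of each week for 4 weeks, the saline mice received injections on the same days, and the lungs were taken on day 28. The knockout is not limited to a cell type, and it lacks exons of Il31ra that encode a stretch of the cytokine-binding domain. RNA came from whole lung, and the sources used here do not say whether the 4 libraries of a group stand for 4 mice, so p-values measure the spread between these libraries. A level is given as RPKM, the reads of a gene scaled by its length and by the total reads of the library. The interaction of a gene is its KO-Bleo minus KO-Sal difference less its WT-Bleo minus WT-Sal difference, on the log2(RPKM + 1) scale, which shrinks the changes of genes at low levels. A positive interaction therefore says that the gene fell less, or rose more, with bleomycin in knockout lungs than in wildtype lungs, and a gene was called where its adjusted p from limma was under 0.05.

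IL-31RA pairs with the oncostatin M receptor, encoded by Osmr, to form the receptor of IL-31, a cytokine made mainly by activated helper T cells and best known for itch, and the pair signals through JAK kinases and STAT factors. In the alveolus, type 2 cells make surfactant and renew the epithelium, and after injury they pass through a transitional state rich in keratins on the way to flat type 1 cells. Fibroblasts and pericytes lay down and organise collagen, and macrophages recruited from blood monocytes collect in the injured lung.

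Sequencing depth was uneven: the 4 KO-Bleo libraries held between 1234594 and 21810640 reads, the KO-Sal libraries between 15538872 and 17740863, the WT-Bleo libraries between 604134 and 32153698 and the WT-Sal libraries between 7790575 and 23481714. KO-Bleo replicate 15 and WT-Bleo replicate 6 were the shallow libraries of the bleomycin groups, with 1208 and 2089 genes listed at 0, so low values in them rest on few reads. KO-Sal replicate 10 had the highest level of the fat cell genes, a mean of 4.97 on the log2 scale against 3.12 to 3.17 in the other KO-Sal libraries. Sftpc, which defines alveolar type 2 cells, held at least 9347 RPKM in each of the 16 libraries. Xist, which is expressed from the inactive X chromosome of females, ranged from 41.8 to 68.0 RPKM over all 16. Each library therefore held RNA of females, and whether any also held RNA of males was not tested. The wildtype and knockout columns were stored with different numbers of decimals, and no source used here says whether the genotypes were handled together. A shift shared by both groups of a genotype cancels in the interaction, and one that is not shared cannot be told apart from the genotype.

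Il31ra itself (gene ID 218624, chr13:112521931-112580732, GRCm38.p6) had 3, 6, 2 and 9 reads in KO-Bleo and 3, 2, 2 and 3 reads in KO-Sal, against 7, 0, 11 and 13 reads in WT-Bleo and 5, 6, 17 and 9 reads in WT-Sal. At these counts the gene was close to the limit of detection in every group, and the reads of the whole gene do not separate the deleted exons from the rest, so they check the labels only weakly. Its interaction was 0.25 ± 0.13 (SE, adjusted p = 0.479 from limma). Osmr, its partner subunit, had an interaction of 0.21 ± 0.14 (SE, adjusted p = 0.581 from limma).

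The interaction was called for 36 genes, 23 of them positive (0.14% of the 16380 genes tested) and 13 negative (0.0794%). At an unadjusted p under 0.05, 665 genes were positive (4.06%) and 1140 negative (6.96%), and the median over all genes was -0.02. The largest positive values among the 36 belonged to Acoxl, Gbp6, Hc, Mme and Lamp3, with interactions of 1.12, 0.99, 0.98, 0.94 and 0.93, and the largest negative values to Rgs5, Fmod, Clec10a, Pla1a and Chl1, with -1.49, -1.29, -1.24, -1.22 and -1.11. Of the 23 positive genes, 10 were called lower and 3 higher with bleomycin in knockout lungs, while all 23 were called lower in wildtype lungs. Their median change was -0.19 in knockout lungs and -0.84 in wildtype lungs. Of the 13 negative genes, 4 were called higher and 2 lower in knockout lungs, while all 13 were called higher in wildtype lungs, with a median change of 0.29 in knockout lungs and 1.25 in wildtype lungs. Over all genes, bleomycin gave 2167 genes called higher (13.2%) and 1697 called lower (10.4%) in KO-Bleo against KO-Sal, and 3045 higher (18.6%) and 2021 lower (12.3%) in WT-Bleo against WT-Sal. The wildtype and knockout changes are parts of the interaction, so these counts describe the called genes and are no separate evidence for them.

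**Figure D1:**
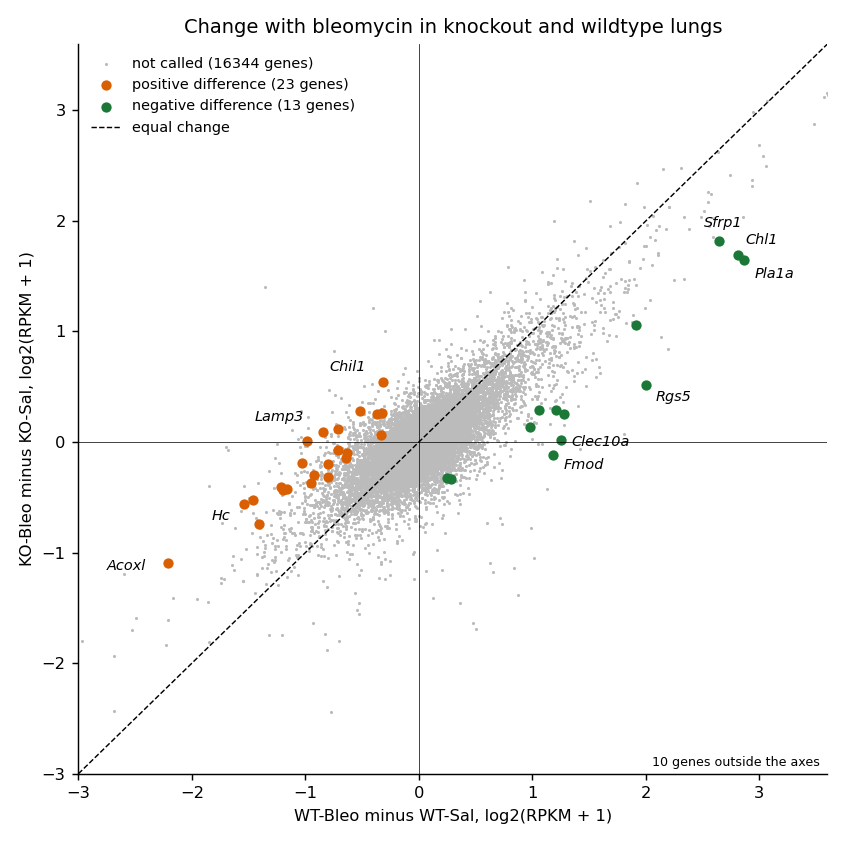
Change with bleomycin of each gene on the log2(RPKM + 1) scale, in knockout lungs (vertical axis) and in wildtype lungs (horizontal axis), with the 36 called genes in colour, the 16344 others in grey and a dashed line where both changes are equal (10 genes lie outside the axes). The 23 genes with a positive interaction lie left of 0 and above the line, and the 13 with a negative one lie right of 0 and below it.

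The direct comparisons of the genotypes share the same libraries and are parts of the interaction, so for the called genes they are a description. KO-Bleo against WT-Bleo gave 35 called genes in all (0.214%), and of the 36 genes with a called interaction, 13 positive genes were called higher and 4 negative genes lower in KO-Bleo. KO-Sal against WT-Sal gave 8 called genes (0.0488%), with none of the 36 among them by limma, although 15 of the 36 had an unadjusted p under 0.05 there. The share of all genes under that p is not given here, so the 15 cannot be set against a background. Under saline, 20 of the 23 positive genes lay lower and 12 of the 13 negative genes higher in KO-Sal than in WT-Sal. Their medians were -0.11 and 0.31, against 0.025 over all genes. The interaction subtracts the saline difference, so choosing genes by the interaction favours such opposite signs under saline. These counts are therefore no separate evidence of where the difference lay. The absolute difference was larger under bleomycin than under saline for 22 of the 23 positive genes and 11 of the 13 negative genes. The exceptions were Fam49a on the positive side and Itgb4 and Ppp1r15a on the negative side. The share over all genes is not given here, so this count too is no evidence of where the difference lay.

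The number of called genes depended strongly on single libraries. With 1 library left out, the count was 18, 5, 3 and 43 without KO-Bleo replicate 13, 14, 15 or 16, and 10, 27, 3 and 60 without KO-Sal replicate 9, 10, 11 or 12. It was 3, 37, 38 and 20 without WT-Bleo replicate 5, 6, 7 or 8, and 7, 11, 4 and 3 without WT-Sal replicate 1, 2, 3 or 4. Lamp3, Chil1 and Dram1 were the genes called in each of these 16 fits. The direction of each of the 36 genes held in all 16 fits, the highest unadjusted p among them was 0.000339, and their adjusted p reached at most 0.123. The 36 were chosen by their p in these same libraries, most of which each fit reuses. Their steady direction and low unadjusted p are therefore no separate evidence for them.

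**Figure D2:**
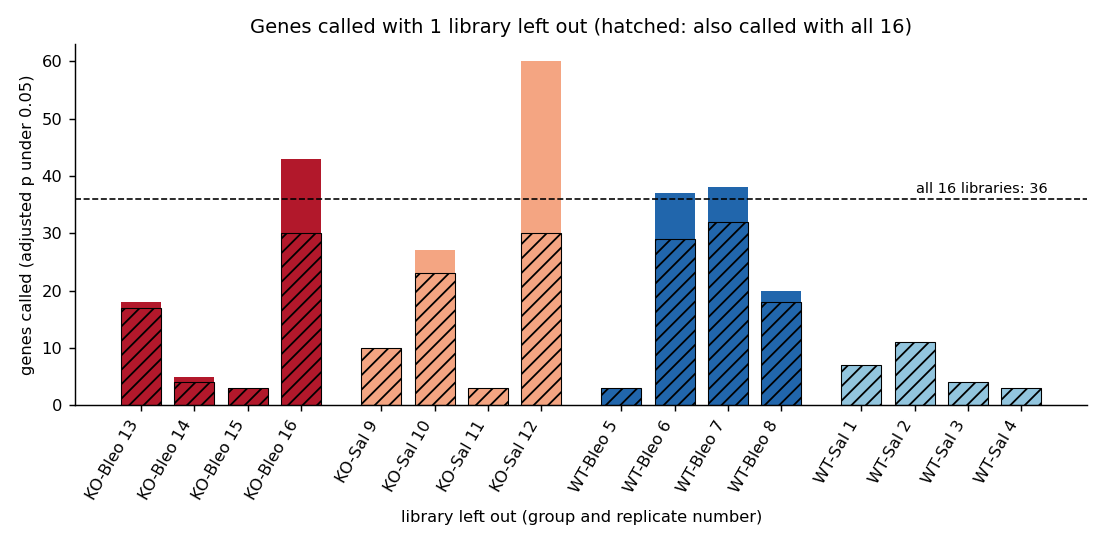
Number of genes with a called interaction (adjusted p under 0.05 from limma) when the library named on the horizontal axis is left out, with bars coloured by group, the hatched part counting genes also called with all 16 libraries and the dashed line at 36. The bars run from 3 to 60, and 3 is reached without KO-Bleo replicate 15, KO-Sal replicate 11, WT-Bleo replicate 5 or WT-Sal replicate 4.

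Genes of alveolar type 2 cells made up the clearest group on the positive side. Of the 20 members of the alveolar type 2 list, 8 were called positive, in a comparison that called 0.14% of all genes positive, and 19 had a positive interaction with an unadjusted p under 0.05, against 4.06% of all genes. The exception was Fasn, which encodes fatty acid synthase and had an interaction of -0.25. The median interaction of the list was 0.45, from a median change of 0.01 in knockout lungs and -0.40 in wildtype lungs, whereas the median interaction over all genes was -0.02. With bleomycin, 6 members were called higher and 5 lower in knockout lungs, and 2 were called higher and 14 lower in wildtype lungs. Over all genes the shares were 13.2% higher and 10.4% lower in knockout lungs, and 18.6% higher and 12.3% lower in wildtype lungs. In bulk RNA, fewer type 2 cells and less of these RNAs per cell cannot be told apart.

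Lamp3, which encodes a lysosomal membrane protein of the lamellar bodies of type 2 cells and of mature dendritic cells (gene ID 239739, chr16:19653381-19706365), had the smallest p of all genes. Lamp3 had 287, 278, 291 and 258 RPKM in KO-Bleo and 268, 301, 221 and 263 RPKM in KO-Sal, against 166, 154, 177 and 193 RPKM in WT-Bleo and 322, 294, 328 and 293 RPKM in WT-Sal. All 4 WT-Bleo values lay below those of the other 12 libraries, while the KO-Bleo and KO-Sal values overlapped. The interaction was 0.93 ± 0.12 (SE, adjusted p = 0.0118 from limma), with a change of 0.09 in knockout lungs (adjusted p = 0.519) and -0.84 in wildtype lungs (adjusted p = 4.17e-05). Sftpc had 14797, 14294, 13356 and 13327 RPKM in KO-Bleo and 15669, 17191, 17121 and 14294 RPKM in KO-Sal, against 9823, 9347, 10075 and 10407 RPKM in WT-Bleo and 17512, 16026, 19466 and 16147 RPKM in WT-Sal. Sftpc (gene ID 20389, chr14:70520941-70524081) encodes surfactant protein C and had the same order, with WT-Bleo below the other 3 groups and overlap between KO-Bleo and KO-Sal. Its interaction was 0.60 ± 0.11 (SE, adjusted p = 0.0369 from limma), with a change of -0.20 in knockout lungs (adjusted p = 0.134) and -0.80 in wildtype lungs (adjusted p = 6.05e-05). Without limma's robust option the adjusted p of Sftpc was 0.56.

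Sftpa1, which encodes surfactant protein A (gene ID 20387, chr14:41131788-41136373), fell with bleomycin in both genotypes and fell less in knockout lungs. Sftpa1 had 1096, 1253, 1101 and 1085 RPKM in KO-Bleo and 1470.4, 1753, 1427 and 1448 RPKM in KO-Sal, against 775, 648, 746 and 819 RPKM in WT-Bleo and 1613, 1739, 1685 and 1613 RPKM in WT-Sal. No KO-Bleo value reached those of KO-Sal, and no WT-Bleo value reached those of KO-Bleo. The interaction was 0.73 ± 0.11 (SE, adjusted p = 0.024 from limma), with a change of -0.42 in knockout lungs (adjusted p = 0.00647) and -1.16 in wildtype lungs (adjusted p = 6.24e-06). Slc34a2, the phosphate transporter of the type 2 cell surface, had 487 ± 46.96 RPKM in KO-Bleo and 599 ± 50.04 RPKM in KO-Sal, against 339 ± 21.8 RPKM in WT-Bleo and 641 ± 31.6 RPKM in WT-Sal (mean ± SD, n = 4 libraries each). Its interaction was 0.62 ± 0.11 (SE, adjusted p = 0.0329 from limma). The interaction was 0.81 for S100g, which encodes a calcium-binding protein (adjusted p = 0.0397), and 0.82 for Egfl6, a secreted protein with EGF-like repeats (adjusted p = 0.0329).

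Hc, the gene of complement component C5 (gene ID 15139, chr2:34983329-35068506), stood in both the alveolar type 2 and the complement list. Hc had 154, 188, 177 and 146 RPKM in KO-Bleo and 275, 257, 213 and 233 RPKM in KO-Sal, against 74.1, 71.4, 85.6 and 97.6 RPKM in WT-Bleo and 294, 219.99, 217 and 231 RPKM in WT-Sal. The KO-Bleo values lay between WT-Bleo and the saline groups without overlap. The interaction was 0.98 ± 0.17 (SE, adjusted p = 0.0329 from limma), with a change of -0.56 in knockout lungs (adjusted p = 0.00384) and -1.54 in wildtype lungs (adjusted p = 2e-05). Chil1, which encodes a secreted chitinase-like protein (gene ID 12654, chr1:134182156-134190031), moved in opposite directions in the genotypes. Chil1 had 685, 634, 565 and 695 RPKM in KO-Bleo and 489, 475, 412 and 394 RPKM in KO-Sal, against 365, 322, 351 and 379.8 RPKM in WT-Bleo and 414, 451, 460.1 and 436 RPKM in WT-Sal. All KO-Bleo values lay above and all WT-Bleo values below those of both saline groups. The interaction was 0.86 ± 0.12 (SE, adjusted p = 0.0118 from limma), with a change of 0.54 in knockout lungs (adjusted p = 0.00287) and -0.31 in wildtype lungs (adjusted p = 0.00494).

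Of the remaining alveolar type 2 members, Lpcat1, Napsa, Sftpd, Cxcl15, Cd36, Sftpb, Abca3, Etv5, Muc1, Lyz2 and Il33 had interactions between 0.25 and 0.53 that were not called. These names fall outside the rule for named genes and were added after their values were seen. The mean level of the list per library was 8.23 to 8.34 in KO-Bleo and 8.16 to 8.45 in KO-Sal, against 7.74 to 7.89 in WT-Bleo and 8.29 to 8.32 in WT-Sal, on the log2(RPKM + 1) scale. All 4 WT-Bleo libraries lay below the other 12, and those of the other 3 groups overlapped. Under every alternative run on the log2 scale, the list's median interaction stayed between 0.40 and 0.49. The alveolar type 2 list was written with earlier results of these libraries known, so its count is not independent evidence of its direction.

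**Figure D3:**
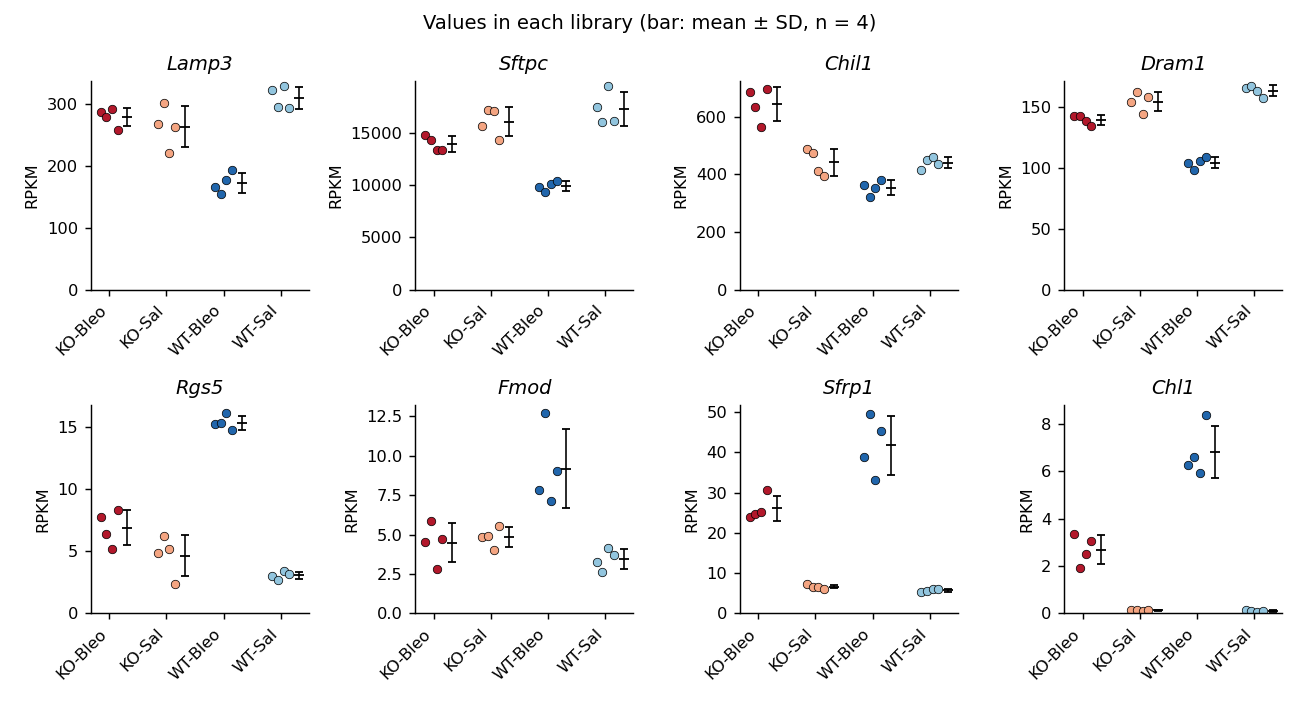
RPKM of 4 genes with a positive interaction (top) and 4 with a negative one (bottom) in each library, by group, with the mean and SD of the 4 libraries beside the points and each vertical axis starting at 0. WT-Bleo stands lowest for Lamp3, Sftpc, Chil1 and Dram1 and highest for Rgs5, Fmod, Sfrp1 and Chl1.

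Several called genes outside that list showed the same order of groups. Mme encodes neprilysin, a peptide-cleaving enzyme of the cell surface. Mme had 29.8, 34.7, 31.3 and 24.4 RPKM in KO-Bleo and 43.4, 50.1, 35.5 and 46.03 RPKM in KO-Sal, against 15.7, 15.5, 18.2 and 18.5 RPKM in WT-Bleo and 48.2, 45.8, 53.1 and 47.1 RPKM in WT-Sal. The KO-Bleo values lay between WT-Bleo and the saline groups without overlap. The interaction of Mme was 0.94 ± 0.15 (SE, adjusted p = 0.0282 from limma). Acoxl, which encodes an acyl-CoA oxidase-like protein, had 11.3, 15.7, 14.9997 and 9.48 RPKM in KO-Bleo and 27.3, 29.001, 29.2 and 26.6 RPKM in KO-Sal, against 5.75, 3.47, 5.87 and 6.13 RPKM in WT-Bleo and 23.8, 29.7, 30.3 and 27.4 RPKM in WT-Sal. Both genotypes fell without overlap, to a lower level in WT-Bleo, and the interaction was 1.12 ± 0.21 (SE, adjusted p = 0.0397 from limma). Acoxl overlaps Bcl2l11 in the annotation, and its WT-Bleo replicate 6 value rests on 6 reads.

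Dram1, a p53 target that promotes autophagy (gene ID 71712, chr10:88322801-88364359), had the smallest SE of the 3 genes called in every leave-one-out fit. Dram1 had 142, 143, 138 and 134 RPKM in KO-Bleo and 154, 162, 144 and 158 RPKM in KO-Sal, against 104, 98.4, 106 and 109 RPKM in WT-Bleo and 166, 167, 163 and 157 RPKM in WT-Sal. WT-Bleo lay below the other groups, the interaction was 0.50 ± 0.07 (SE, adjusted p = 0.0134 from limma), and the change was -0.14 in knockout lungs (adjusted p = 0.0978) and -0.64 in wildtype lungs (adjusted p = 1.9e-05). Dram1 overlaps Washc3 in the annotation, and no source used here says whether reads were counted by strand. The list of 21 p53 targets, which leaves out Dram1, had a median interaction of -0.165 and 0 called members. With bleomycin, 16 of the 21 were called higher in knockout lungs and 17 in wildtype lungs (13.2% and 18.6% of all genes). Interactions between 0.40 and 0.84 were called for the other positive genes. They were 0.84 for Itih4, an inter-alpha-trypsin inhibitor heavy chain, 0.80 for Sgpp2, a phosphatase of sphingosine-1-phosphate, and 0.76 for Ppp1r14c, an inhibitor of protein phosphatase 1. Cpm, the membrane-bound carboxypeptidase M, had 0.67, the membrane protein Mlc1 0.59, the secreted Lgi3 0.58, the carbonic anhydrase-related Car8 0.53, the RAC1-binding Fam49a 0.48 and the sorting nexin Snx25 0.40. Sgpp2 rose in knockout lungs (change 0.28, adjusted p = 0.0355 from limma) and fell in wildtype lungs (change -0.52, adjusted p = 0.00691).

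**Figure D4:**
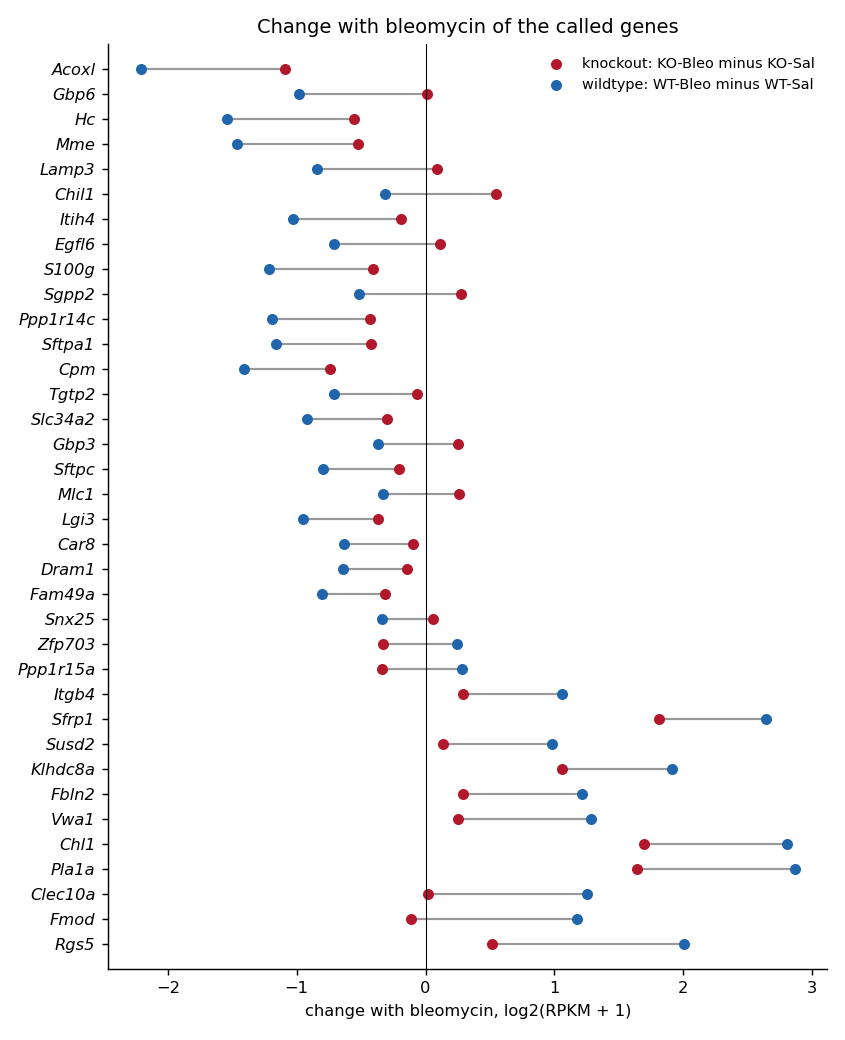
Change with bleomycin of the 36 called genes on the log2(RPKM + 1) scale, ordered by interaction from Acoxl at the top to Rgs5 at the bottom, with knockout lungs in red and wildtype lungs in blue. The knockout point lies right of the wildtype point for the 23 upper genes and left of it for the 13 lower ones. For 11 of the 36 the points lie on opposite sides of 0, while over all 16380 genes both changes had the same sign in 75.3%.

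Gbp6, Gbp3 and Tgtp2, which encode interferon-inducible GTPases that act against intracellular microbes, were also called positive, and they are set side by side here after their values were seen. Gbp6 had 6.05, 6.73, 7.504 and 6.86 RPKM in KO-Bleo and 5.74, 8.73, 5.43 and 7.39 RPKM in KO-Sal, against 4.12, 3.45, 4.502 and 5.24 RPKM in WT-Bleo and 10.4, 8.77, 10.3 and 8.52 RPKM in WT-Sal. WT-Bleo was the lowest group, KO-Bleo and KO-Sal overlapped, and WT-Sal reached the highest values, overlapping with KO-Sal. Its interaction was 0.99 ± 0.18 (SE, adjusted p = 0.036 from limma). Gbp3 had an interaction of 0.62 ± 0.12 (SE, adjusted p = 0.0397 from limma) and was called higher with bleomycin in knockout lungs (change 0.25, adjusted p = 0.0343) and lower in wildtype lungs (change -0.37, adjusted p = 0.0124). Tgtp2 had an interaction of 0.64 ± 0.12 (SE, adjusted p = 0.0414 from limma) at levels of 1.79 to 4.46 RPKM. Gbp6, Gbp3 and Tgtp2 belong to families with close copies, so their reads may be shared with other members. Of the 25 members of the interferon-induced list, 1 was called positive (0.14% of all genes). At an unadjusted p under 0.05, 7 had a positive and 1 a negative interaction (4.06% and 6.96% of all genes). The median interaction of the list was 0.07. Gbp4 and Iigp1 had interactions of 0.77 and 0.61 that were not called (adjusted p = 0.0645 and 0.17 from limma). Isg15, Ifit1, Ifit2 and Cxcl10, named after their values were seen, lay between -0.02 and 0.07. Farther from 0, and also named after their values were seen, were Oas2 (-0.52), Oas1a (-0.31), Rsad2 (0.29) and Mx1 (0.25), none of them called.

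The 250 bases upstream of the start are shown for Lamp3 (chr16:19706366-19706615, minus strand), Sftpa1 (chr14:41131538-41131787, plus strand) and Tgtp2 (chr11:49064213-49064462, minus strand). These 3 were picked by hand from the positive genes. The bases are from RefSeq on GRCm38.p6, 5′ to 3′ on the strand of the gene. Capitals mark matches to 3 short motifs searched on both strands: the NKX2 core CAAGTG, the STAT pair TTCNNNGAA and the interferon-stimulated element, which is GAAA repeated after any 2 bases.
Lamp3: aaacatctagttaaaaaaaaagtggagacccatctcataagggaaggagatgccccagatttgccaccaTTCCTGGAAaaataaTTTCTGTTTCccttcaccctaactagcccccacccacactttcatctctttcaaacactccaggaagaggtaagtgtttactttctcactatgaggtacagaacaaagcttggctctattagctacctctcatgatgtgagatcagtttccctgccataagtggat
Sftpa1: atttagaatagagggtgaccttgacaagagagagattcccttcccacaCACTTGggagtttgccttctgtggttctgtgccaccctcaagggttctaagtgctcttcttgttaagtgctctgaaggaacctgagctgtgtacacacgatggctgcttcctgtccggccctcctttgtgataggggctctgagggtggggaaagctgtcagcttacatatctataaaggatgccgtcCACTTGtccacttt
Tgtp2: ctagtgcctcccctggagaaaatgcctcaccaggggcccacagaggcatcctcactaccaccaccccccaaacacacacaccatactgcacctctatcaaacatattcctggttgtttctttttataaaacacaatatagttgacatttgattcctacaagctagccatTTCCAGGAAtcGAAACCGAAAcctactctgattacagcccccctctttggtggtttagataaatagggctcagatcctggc
Lamp3 and Tgtp2 each held 1 STAT pair and 1 interferon-stimulated element, and Sftpa1 held 2 NKX2 cores. Windows were listed for 19 of the 23 positive and 6 of the 13 negative genes. Among the 19, only Lamp3 and Tgtp2 held both a STAT pair and an interferon-stimulated element. The 3 windows shown all hold a match, so they do not stand for the positive genes as a set. The NKX2 core was found for 5 of the 19 and 0 of the 6, against 11.6% of the 32851 listed windows. The STAT pair was found for 5 of the 19 and 0 of the 6, against 7.02% of windows, and the interferon-stimulated element for 3 and 2, against 2.98%. A gene can have several windows, and a match is a description of these letters, not a binding site.

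Genes of natural killer and cytotoxic cells, which kill infected or stressed cells, leaned the same way without a called member. Of 14 members, 8 had a positive interaction at an unadjusted p under 0.05 (background 4.06%). In all, 13 were positive (7317 of all 16380 genes). The median was 0.77, while limma, limma-voom and limma with quality weights called 0. With bleomycin 1 of the 14 was called lower in knockout lungs and 13 in wildtype lungs (10.4% and 12.3% of all genes). Median changes were -0.32 in knockout lungs and -1.04 in wildtype lungs. Gzma, the gene of the protease granzyme A, had 13.1, 15.9, 21.2 and 15.4 RPKM in KO-Bleo and 27.5, 15.04, 21.98 and 23.9 RPKM in KO-Sal, against 5.65, 7.54, 13.6 and 17.1 RPKM in WT-Bleo and 33.6, 24.5, 36.2 and 31.5 RPKM in WT-Sal. The KO-Bleo values overlapped both KO-Sal and WT-Bleo. Its interaction was 1.14 ± 0.37 (SE, adjusted p = 0.289 from limma), and those of the receptor genes Klrb1c and Klre1 were 1.24 and 1.61 (adjusted p = 0.205 and 0.245), both listed at 0 in WT-Bleo replicate 6. Without both shallow libraries the list's median was 0.48.

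On the negative side, no list supplied more than 2 of the 13 called genes. Rgs5, a regulator of G protein signalling that marks pericytes (gene ID 19737, chr1:169655501-169695813), had the largest negative value. Rgs5 had 7.72, 6.37, 5.17 and 8.28 RPKM in KO-Bleo and 4.85, 6.21, 5.19 and 2.36 RPKM in KO-Sal, against 15.2, 15.3, 16.1 and 14.7 RPKM in WT-Bleo and 3.05, 2.71, 3.38 and 3.16 RPKM in WT-Sal. All WT-Bleo values lay above those of the other 12 libraries, and KO-Bleo overlapped KO-Sal. The interaction was -1.49 ± 0.25 (SE, adjusted p = 0.0329 from limma), with a change of 0.52 in knockout lungs (adjusted p = 0.12) and 2.004 in wildtype lungs (adjusted p = 2.93e-07). The other pericyte genes of the list were not called: Notch3, Pdgfrb, Cspg4, Abcc9, Kcnj8, Mcam, Higd1b and Cox4i2, named after their values were seen, had interactions between -0.31 and 0.05. The list of fibroblast and pericyte genes had a median interaction of 0.04, with Rgs5 as its 1 called member of 19.

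Fmod encodes fibromodulin, a small proteoglycan that binds collagen fibrils (gene ID 14264, chr1:134037254-134048280), and Fbln2 encodes fibulin-2, a glycoprotein of elastic fibres and basement membranes (gene ID 14115, chr6:91212460-91272540). Fmod had 4.51, 5.87, 2.83 and 4.75 RPKM in KO-Bleo and 4.85, 4.93, 4.05 and 5.56 RPKM in KO-Sal, against 7.85, 12.7, 7.101 and 9.02 RPKM in WT-Bleo and 3.23, 2.65, 4.16 and 3.72 RPKM in WT-Sal. Fbln2 had 4.95, 4.68, 5.43 and 5.55 RPKM in KO-Bleo and 3.07, 5.58, 3.26 and 4.52 RPKM in KO-Sal, against 11.3, 12.2, 9.36 and 9.82 RPKM in WT-Bleo and 4.04, 4.18, 3.899 and 3.95 RPKM in WT-Sal. For both genes the WT-Bleo values lay above those of the other 12 libraries, and KO-Bleo overlapped KO-Sal. The interaction was -1.29 ± 0.25 (SE, adjusted p = 0.0438 from limma) for Fmod and -0.92 ± 0.18 (SE, adjusted p = 0.0486 from limma) for Fbln2. Fmod and Fbln2 were called in 1 and 2 of the 16 leave-one-out fits. Vwa1, a von Willebrand factor A domain protein of the matrix, had an interaction of -1.03 ± 0.18 (SE, adjusted p = 0.0329 from limma) and was called in 8 of the 16.

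The collagens themselves were not among the called genes. Of the 23 members of the structural matrix list, Fmod and Fbln2 were called negative (0.0794% of all genes). At an unadjusted p under 0.05, 2 had a positive and 5 a negative interaction (background 4.06% and 6.96%). The median of the list was -0.03, changing sign in 8 alternatives. With bleomycin, 14 members were called higher in knockout lungs and 16 in wildtype lungs (13.2% and 18.6% of all genes). Median changes were 0.49 in knockout and 0.83 in wildtype lungs. The list's median difference was -0.392 for KO-Bleo minus WT-Bleo and -0.275 for KO-Sal minus WT-Sal (0.006 and 0.025 over all genes). A difference shared by both treatments cancels in the interaction. Col1a1 had 62.7 ± 16.1 RPKM in KO-Bleo and 29.6 ± 7.297 RPKM in KO-Sal, against 99.4 ± 16.8 RPKM in WT-Bleo and 36.7 ± 1.81 RPKM in WT-Sal (mean ± SD, n = 4 libraries each). Its interaction was -0.35 ± 0.23 (SE, adjusted p = 0.585 from limma). Col3a1 had 237 ± 46.5 RPKM in KO-Bleo and 86.5 ± 25.7 RPKM in KO-Sal, against 304 ± 31.7 RPKM in WT-Bleo and 159.6 ± 17.2 RPKM in WT-Sal. Its interaction was 0.54 ± 0.23 (SE, adjusted p = 0.408 from limma), opposite in sign to that of Col1a1, and both collagens rose in both genotypes.

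Fn1, the gene of fibronectin, rose in both genotypes, with a change of 1.96 in knockout lungs (adjusted p = 3.61e-05) and 2.56 in wildtype lungs (adjusted p = 4.57e-07), and its interaction was -0.60 ± 0.20 (SE, adjusted p = 0.296 from limma). Timp1, an inhibitor of matrix metalloproteinases, rose with a change of 3.14 in knockout lungs (adjusted p = 1.25e-06) and 3.61 in wildtype lungs (adjusted p = 4.57e-07), and its interaction was -0.47 ± 0.21 (SE, adjusted p = 0.441 from limma). Mmp13, a collagenase, had an interaction of -0.38 ± 0.14 (SE, adjusted p = 0.353 from limma), and Il6, the gene of interleukin 6, had -0.24 ± 0.36 (SE, adjusted p = 0.826 from limma). None of these 4 interactions was called. Mmp2 had 93.3, 99.01, 106 and 124 RPKM in KO-Bleo and 26.6, 20.97, 24.6 and 31.1 RPKM in KO-Sal, against 105, 108, 86.9 and 111 RPKM in WT-Bleo and 51.9, 38.8, 44.4 and 42.3 RPKM in WT-Sal. Mmp2, a gelatin-cleaving metalloproteinase, stood out on the other side: KO-Sal lay below WT-Sal while KO-Bleo and WT-Bleo overlapped, and the interaction was 0.81 ± 0.17 (SE, adjusted p = 0.0645 from limma). Mmp2 was called under 5 of the 27 alternatives.

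Sfrp1 encodes a secreted inhibitor of WNT signalling (gene ID 20377, chr8:23411383-23449632). Sfrp1 had 23.9, 24.7, 25.2 and 30.6 RPKM in KO-Bleo and 7.19, 6.66, 6.62 and 6.19 RPKM in KO-Sal, against 38.8, 49.6, 33.1 and 45.2 RPKM in WT-Bleo and 5.401, 5.54, 6.11 and 6.002 RPKM in WT-Sal. KO-Bleo lay above both saline groups and below WT-Bleo without overlap. The interaction was -0.83 ± 0.15 (SE, adjusted p = 0.0329 from limma), with a change of 1.82 in knockout lungs (adjusted p = 2.4e-06) and 2.64 in wildtype lungs (adjusted p = 5.84e-07). Of 25 WNT genes, 1 was called negative, and 2 were positive and 9 negative at an unadjusted p under 0.05 (background 4.06% and 6.96%), with a median of -0.23 that was close to 0 with genes of a mean under 5 left out. Frzb, another secreted WNT inhibitor, and the ligand gene Wnt10a had interactions of -0.70 and -0.76 (adjusted p = 0.157 and 0.164) at levels of at most 2.35 RPKM. Of 25 genes of BMP and TGF-beta signalling, 0 were called by limma and by limma-voom, 4 were called negative with quality weights, and 8 were negative at an unadjusted p under 0.05. Id3, a target gene of BMP signalling, and Inhba, which encodes the activin A subunit, had interactions of -0.79 and -0.59 (adjusted p = 0.0957 and 0.117).

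Chl1, an adhesion molecule related to L1, and Pla1a, a phospholipase that cleaves phosphatidylserine, were close to absent under saline and appeared with bleomycin. Chl1 had 3.33, 1.902, 2.51 and 3.05 RPKM in KO-Bleo and 0.131, 0.144, 0.083 and 0.159 RPKM in KO-Sal, against 6.25, 6.62, 5.94 and 8.39 RPKM in WT-Bleo and 0.149, 0.0987, 0.0549 and 0.12 RPKM in WT-Sal. Pla1a had 5.09, 4.195, 4.102 and 6.41 RPKM in KO-Bleo and 0.657, 1.19, 1.34 and 0.475 RPKM in KO-Sal, against 11.7, 13.4, 10.1 and 9.95 RPKM in WT-Bleo and 0.455, 0.775, 0.927 and 0.576 RPKM in WT-Sal. In both genes KO-Bleo lay between the saline groups and WT-Bleo without overlap. The interaction was -1.11 ± 0.17 (SE, adjusted p = 0.024 from limma) for Chl1 and -1.22 ± 0.23 (SE, adjusted p = 0.036 from limma) for Pla1a. On the scale of limma-voom of whole reads, the adjusted p of Chl1 was 0.213. The kelch-domain gene Klhdc8a rose in both genotypes and less in knockout lungs, with an interaction of -0.85 ± 0.16 (SE, adjusted p = 0.036 from limma). Itgb4, the integrin subunit of hemidesmosomes, had an interaction of -0.76 ± 0.14 (SE, adjusted p = 0.0345 from limma), and Susd2, a membrane protein with a sushi domain, -0.84 ± 0.13 (SE, adjusted p = 0.024 from limma).

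Clec10a, a galactose-binding lectin of macrophages and dendritic cells, was a low gene with the same pattern as Fmod. Clec10a had 2.95, 2.19, 1.51 and 2.81 RPKM in KO-Bleo and 2.31, 2.88, 2.55 and 1.53 RPKM in KO-Sal, against 4.64, 5.13, 3.53 and 4.61 RPKM in WT-Bleo and 1.51, 1.29, 1.35 and 1.03 RPKM in WT-Sal. The WT-Bleo values lay above those of the other 12 libraries, and the lowest library had 3 reads. The interaction was -1.24 ± 0.22 (SE, adjusted p = 0.0329 from limma). Of the 20 genes of monocyte-derived macrophages, 7 were negative at an unadjusted p under 0.05 (background 6.96%) and 0 were called by limma, limma-voom or with quality weights, with a median interaction of -0.42. Their median difference was -0.12 for KO-Bleo minus WT-Bleo and 0.15 for KO-Sal minus WT-Sal. With bleomycin 17 of the 20 were called higher in each genotype (13.2% of all genes in knockout and 18.6% in wildtype lungs). Median changes were 1.66 in knockout and 1.99 in wildtype lungs. Apoe, which encodes a lipid-carrying protein, had 401 ± 97.4 RPKM in KO-Bleo and 187 ± 29.8 RPKM in KO-Sal, against 579 ± 69.2 RPKM in WT-Bleo and 157 ± 19.8 RPKM in WT-Sal (mean ± SD, n = 4 libraries each), and its interaction was -0.79 ± 0.22 (SE, adjusted p = 0.215 from limma). Gpnmb, a glycoprotein of lipid-loaded macrophages, had an interaction of -0.44 (adjusted p = 0.312 from limma).

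Keratin-rich transitional and basal epithelial genes were negative as a group, opposite in sign to the alveolar type 2 genes, with no called member. All 13 transitional genes had a negative interaction, as did 9063 of all 16380 genes. Of the 13, 8 had an unadjusted p under 0.05 (background 6.96%). The median was -0.31, and limma, limma-voom and limma with quality weights called 0. With bleomycin 9 were called higher in knockout lungs and 12 in wildtype lungs (13.2% and 18.6% of all genes). Median changes were 0.56 in knockout and 0.87 in wildtype lungs. Cldn4, a tight junction protein, had 15.99, 10.4, 15.2 and 13.01 RPKM in KO-Bleo and 1.65, 1.85, 1.35 and 1.46 RPKM in KO-Sal, against 25.2, 20.1, 21.8 and 21.5 RPKM in WT-Bleo and 1.63, 1.46, 1.79 and 2.28 RPKM in WT-Sal. KO-Bleo lay below WT-Bleo and above both saline groups without overlap. Its interaction was -0.56 ± 0.17 (SE, adjusted p = 0.269 from limma), and those of Clu and Krt8 were -0.54 and -0.43 (adjusted p = 0.183 and 0.312). Of 14 basal and squamous genes, 13 were negative, 5 at an unadjusted p under 0.05, and the median was -0.37. Of these genes, 0 were called by limma, limma-voom or with quality weights. The gene Sfn stands in this list and in the transitional list. Krt5 and Krt14, keratins of basal cells, had interactions of -0.91 ± 0.35 (SE, adjusted p = 0.373 from limma) and -0.64 ± 0.41 (SE, adjusted p = 0.559 from limma), at levels of at most 3.76 RPKM. The 14 type 1 genes had a median interaction of -0.11 and the 18 club and goblet genes -0.12, and the part of these other epithelial cells in the type 2 result was not tested.

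**Figure D5:**
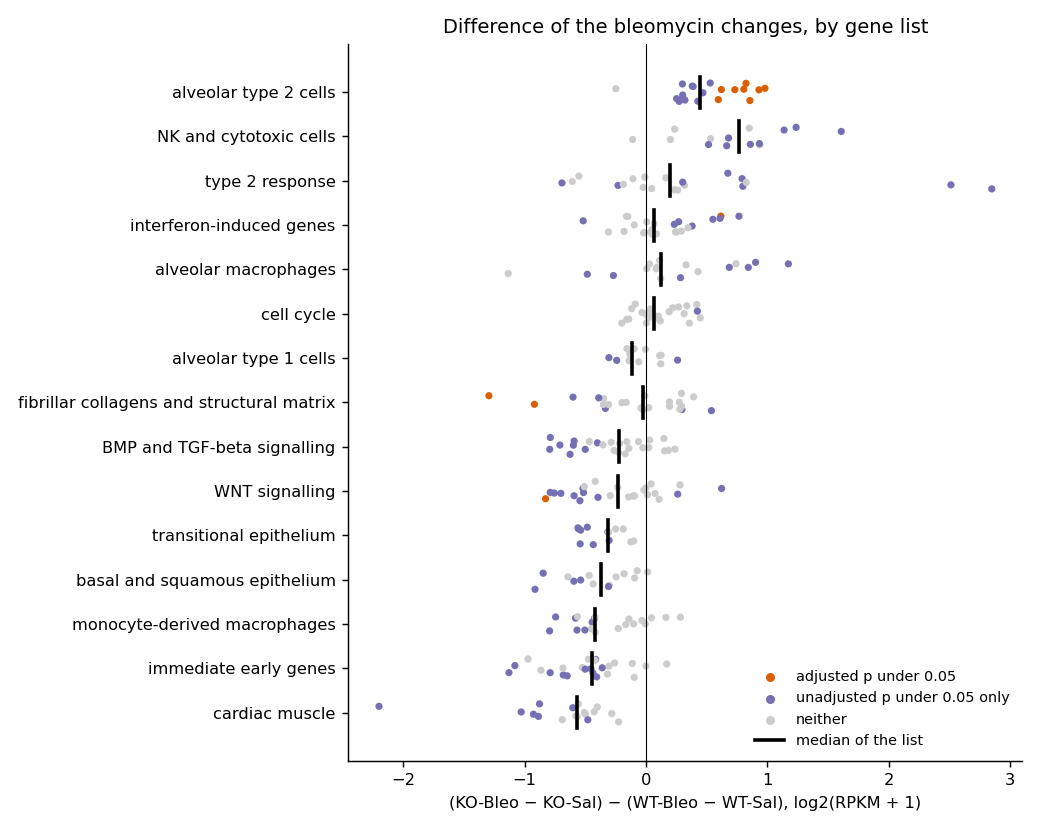
Interaction of each member of 15 gene lists on the log2(RPKM + 1) scale, coloured by its p from limma, with a bar at the median of the list. The medians run from 0.77 for natural killer and cytotoxic cells and 0.45 for alveolar type 2 cells to -0.57 for cardiac muscle, with called members in orange in the alveolar type 2, interferon, structural matrix and WNT lists.

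Immediate early genes are switched on within minutes by growth factors, stress or handling of tissue. The interaction was negative for 23 of the 24 members (9063 of all 16380 genes). Of these, 11 had an unadjusted p under 0.05 (background 6.96%), 0 were called by limma, 2 by limma-voom and 3 with quality weights, and the median was -0.45. The list's median was -0.23 for KO-Bleo minus WT-Bleo and 0.24 for KO-Sal minus WT-Sal, so the bleomycin and the saline groups differed in opposite directions. Junb had 26.6, 28.7, 38.7 and 39.8 RPKM in KO-Bleo and 35.8, 26.3, 34.7 and 23.4 RPKM in KO-Sal, against 48.9, 42.3, 59.5 and 47.1 RPKM in WT-Bleo and 16.7, 21.3, 24.2 and 17.2 RPKM in WT-Sal. For Junb, which encodes a subunit of the AP-1 transcription factor, WT-Bleo lay above the other 3 groups and the KO-Bleo and KO-Sal values overlapped. Its interaction was -1.13 ± 0.23 (SE, adjusted p = 0.0593 from limma), and it was called under 7 of the 27 alternatives. Ppp1r15a, the stress-induced subunit that directs protein phosphatase 1 to the translation factor eIF2-alpha, and the transcriptional regulator gene Zfp703 moved in opposite directions in the genotypes. Ppp1r15a had 15.8, 18.98, 17.7 and 19.3 RPKM in KO-Bleo and 22.6, 21.4, 25.1 and 22.4 RPKM in KO-Sal, against 23.5, 22.7, 22.7 and 20.5 RPKM in WT-Bleo and 17.1, 17.4, 20.6 and 17.9 RPKM in WT-Sal. Ppp1r15a had a change of -0.34 in knockout lungs (adjusted p = 0.0108) and 0.28 in wildtype lungs (adjusted p = 0.0164) and Zfp703 of -0.33 in knockout lungs (adjusted p = 0.0117) and 0.24 in wildtype lungs (adjusted p = 0.0285), with interactions of -0.61 ± 0.11 (SE, adjusted p = 0.0329 from limma) and -0.57 ± 0.10 (SE, adjusted p = 0.0345 from limma). The KO-Bleo and KO-Sal values of Ppp1r15a did not overlap, whereas those of WT-Bleo and WT-Sal did by a small margin.

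Of the type 2 response list, Clca1 and Muc5ac had the smallest p, and neither was called. Clca1 had 190.2, 114, 124 and 67.01 RPKM in KO-Bleo and 0.941, 0.7, 0.263 and 3.58 RPKM in KO-Sal, against 14.97, 54.1, 40.8 and 26.3 RPKM in WT-Bleo and 3.19, 3.37, 4.004 and 2.04 RPKM in WT-Sal. KO-Bleo lay above WT-Bleo, and both lay above the saline groups. For Clca1, a secreted protein of goblet cells, the interaction was 2.85 ± 0.59 (SE, adjusted p = 0.0789 from limma), with a change of 5.80 in knockout lungs (adjusted p = 8.3e-05) and 2.95 in wildtype lungs (adjusted p = 0.000166). Muc5ac, the gel-forming mucin of goblet cells, had 2.69, 2.098, 3.05 and 3.84 RPKM in KO-Bleo and 0.311, 0.297, 0.189 and 0.372 RPKM in KO-Sal, against 1.11, 1.36, 1.203 and 1.42 RPKM in WT-Bleo and 0.211, 0.425, 0.23 and 0.425 RPKM in WT-Sal, and an interaction of 0.80 ± 0.17 (SE, adjusted p = 0.0645 from limma). Of the 20 type 2 response genes, 6 were positive and 2 negative at an unadjusted p under 0.05 (background 4.06% and 6.96%). The median of the list was 0.20, with 0 called by limma and limma-voom and 2 with quality weights. Clca1 and Muc5ac also belong to the club and goblet list, of whose 18 members 8 had a positive and 10 a negative interaction. Over all 16380 genes, 7317 were positive and 9063 negative. Among the club and goblet members, the mucin gene Muc5b had -0.085 and Agr2, a gene of secretory cells, -0.45. Both were named after their values were seen. In the IL-6 family, the receptor gene Il6ra had an interaction of 0.47 and Socs3, an inhibitor of STAT signalling, -0.51 (adjusted p = 0.245 and 0.382), and the median over 19 genes was close to 0.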

How the data were processed

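Whole-lung RNA of 16 libraries was sequenced, 4 for each combination of genotype and treatment. The tools bcl2fastq, CASAVA 1.8, TopHat and DESeq and the mm10 build are listed in the submitters' processing notes. The authors deposited RPKM values of 16380 genes, a unit read from the values: whole reads could be recovered for 16366 genes (99.91%, relative tolerance 6e-08). Columns without a sample numbered 0. Groups came from the labels.

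The interaction was fitted with limma 3.58.1 in R 4.3.3 (variance trend, robust option) on log2(RPKM + 1) over all 16 libraries, the change in each genotype on its own 8 libraries, and p-values were adjusted by Benjamini-Hochberg over all 16380 genes. Alternatives were other pseudocounts, scales, filters, scalings and weights, limma-voom on the recovered reads, and leaving out libraries.

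Members and the 37 gene lists were chosen with earlier results of these data known. Named genes are all called genes, the 8 largest uncalled interactions in each direction with p under 0.01 and a mean log2 value of 1 or more in any group, up to 3 genes of each list with the smallest p under 0.05, and Il31ra, Osmr, Col1a1, Col3a1, Fn1, Mmp13, Timp1, Il6, Krt5 and Krt14. Gene positions are from RefSeq GRCm38.p6, which held 16363 of the gene IDs (99.9%). A few genes of the rule are not reported here.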

Additional observations from a re-analysis of the deposited data

Results flagged for a closer look

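The change with bleomycin differed between knockout and wildtype lungs for 36 genes by the interaction test itself (limma, adjusted p under 0.05). The positive interactions, on the log2(RPKM + 1) scale, were 1.12 for Acoxl, 0.99 for Gbp6, 0.98 for Hc, 0.94 for Mme, 0.93 for Lamp3, 0.86 for Chil1, 0.84 for Itih4, 0.82 for Egfl6, 0.81 for S100g, 0.80 for Sgpp2, 0.76 for Ppp1r14c and 0.73 for Sftpa1. Smaller positive ones were 0.67 for Cpm, 0.64 for Tgtp2, 0.62 for Slc34a2, 0.62 for Gbp3, 0.60 for Sftpc, 0.59 for Mlc1, 0.58 for Lgi3, 0.53 for Car8, 0.50 for Dram1, 0.48 for Fam49a and 0.40 for Snx25. The negative interactions were -1.49 for Rgs5, -1.29 for Fmod, -1.24 for Clec10a, -1.22 for Pla1a, -1.11 for Chl1, -1.03 for Vwa1, -0.92 for Fbln2, -0.85 for Klhdc8a, -0.84 for Susd2, -0.83 for Sfrp1, -0.76 for Itgb4, -0.61 for Ppp1r15a and -0.57 for Zfp703.

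In 296 sets of 4 values from 1 group (total reads, the called genes and the mean levels of the 37 lists), a single library stood apart from the other 3 in 22 sets by Dixon's test, and chance flags about 1 in 20. Total reads stood apart for KO-Bleo replicate 15, at 1234594. Among the called genes, WT-Bleo replicate 6, the shallowest library, stood apart for Acoxl (3.47 RPKM), Mlc1 (21.3 RPKM), Lgi3 (26.5 RPKM) and Fam49a (16.4 RPKM). Sftpa1 stood apart in KO-Bleo replicate 14 (1253 RPKM) and KO-Sal replicate 10 (1753 RPKM), Vwa1 in KO-Bleo replicate 14 (2.64 RPKM), Zfp703 in KO-Sal replicate 9 (21.1 RPKM) and Itih4 in WT-Sal replicate 1 (23.3 RPKM). Among mean list levels, on the log2(RPKM + 1) scale, KO-Bleo replicate 15 stood apart for neutrophil genes (3.56) and fat cell genes (2.20). KO-Sal replicate 10 stood apart for fat cell genes (4.97), alveolar macrophage genes (5.25) and contractile genes (4.196), KO-Sal replicate 11 for club and goblet cell genes (4.997) and KO-Sal replicate 12 for ciliated cell genes (3.77). WT-Bleo replicate 6 stood apart for alveolar macrophage genes (4.08) and the IL-6 family (3.05), WT-Bleo replicate 7 for cardiac muscle genes (2.45), WT-Sal replicate 1 for contractile genes (4.56) and WT-Sal replicate 3 for respiratory chain genes (6.19).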

How the results depend on the processing

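The direction of each of the 132 named genes held under every alternative that gave a value. Most of these genes were named by their p in these same libraries, so their steady direction is no separate evidence for them. With all 16 libraries, 36 genes were called (23 positive, 13 negative), and 1805 had an unadjusted p under 0.05. Library quality weights called 136 genes (75 positive, 61 negative), which included all 36, and limma-voom on whole reads called 81 (51 positive, 30 negative), which included 34 of the 36. A threshold of 0.1 on the adjusted p gave 66 genes, the square root scale called 27 genes (15 positive, 12 negative), and with genes of a mean under 5 left out 1156 genes had an unadjusted p under 0.05, from fewer genes tested. The other pseudocounts, filters and scalings gave 32 to 42 called genes, no robust option 35, and leaving out both shallow libraries 27, of which 19 were among the 36. Leaving out 1 library gave 3 to 60 called genes, 3 to 30 of them positive and 0 to 30 negative, and 1444 to 2069 genes with an unadjusted p under 0.05. For the change with bleomycin in knockout lungs the same fits gave 2698 to 4073 called genes (1646 to 2277 higher, 1052 to 1796 lower), and in wildtype lungs 3878 to 6442 (2398 to 3905 higher, 1480 to 2537 lower). The cause was not tested for these counts. No scaling moved the median interaction of all genes by more than 0.1. No paired analysis was possible because the replicate numbers run from 1 to 16 and no number is shared between groups. Depth limits low genes: in WT-Bleo replicate 6, 2089 genes were listed at 0, and Clec10a, Tgtp2, Acoxl and Pla1a had 3 to 7 reads in their lowest library. Reads of 6 called genes (Acoxl, Dram1, Itgb4, Ppp1r15a, S100g and Sgpp2) could be shared with an overlapping gene of the table.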

Other observations

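Cardiac muscle genes, outside the groups above, mark muscle of the pulmonary veins or of attached heart tissue. The interaction was negative for 17 of 17 members (9063 of all 16380 genes). Of these, 7 had an unadjusted p under 0.05 (background 6.96%), 0 were called by limma, limma-voom or with quality weights, and the median was -0.57. With bleomycin 11 were called lower in knockout lungs and 2 in wildtype lungs (10.4% and 12.3% of all genes). The mean level of the list was 2.08 to 2.82 in KO-Bleo and 2.76 to 3.65 in KO-Sal, against 2.45 to 2.85 in WT-Bleo and 2.51 to 3.22 in WT-Sal. The ranges of all 4 groups met or overlapped. Nppa, the gene of atrial natriuretic peptide, varied from 0.298 to 15.1 RPKM among the saline libraries, and its interaction was -2.20 ± 0.83 (SE, adjusted p = 0.367 from limma). Genes of ciliated cells, which move mucus, had a median interaction of -0.32, with 5 of 20 negative at an unadjusted p under 0.05 and 0 called by limma, limma-voom or with quality weights. Their median difference was 0.15 for KO-Bleo minus WT-Bleo and 0.43 for KO-Sal minus WT-Sal.

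Genes of fat cells had a median interaction of -0.62 with all libraries and -0.12 without KO-Sal replicate 10. Cidea, a lipid droplet protein of fat cells, held 19.9 RPKM in that library, against at most 2.84 RPKM in the other 15. Cell cycle genes rose alike in number, with 24 of 26 called higher in each genotype (13.2% of all genes in knockout and 18.6% in wildtype lungs). Their median interaction was 0.06, 1 of 26 had an unadjusted p under 0.05, and 0 were called by limma, limma-voom or with quality weights. The respiratory chain genes had a median interaction of -0.11, with 0 of 22 at an unadjusted p under 0.05. The plasma cell gene Jchain had 20.2, 10.4, 11.2 and 34.5 RPKM in KO-Bleo and 79.1, 91.6, 90.9997 and 6.11 RPKM in KO-Sal, against 10.3, 7.87, 22.8 and 7.97 RPKM in WT-Bleo and 5.86, 3.08, 15.4 and 3.096 RPKM in WT-Sal, and its interaction was -2.26 ± 1.04 (SE, adjusted p = 0.447 from limma). Of the 76 genes within 10 Mb of Il31ra on chromosome 13, 0 had a called interaction by limma, limma-voom or with quality weights. At an unadjusted p under 0.05, 6 of the 76 were positive (background 4.06%) and 2 negative (background 6.96%), and the lowest adjusted p from limma was 0.262.

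Large interactions that missed the threshold included several low or variable genes. The positive ones were 2.76 for Mir7013, 1.61 for Klre1, 1.41 for Colq, which anchors acetylcholinesterase, 1.30 for Angptl4, an inhibitor of lipoprotein lipase, 1.24 for Klrb1c, 1.17 for the keratin gene Krt79 and 1.17 for Gm11744, with adjusted p between 0.0645 and 0.323. The negative ones were -1.72 for Bpifa1, a secreted protein of the airways, -1.54 for Hamp, the iron hormone hepcidin, -1.35 for Rgs16, a regulator of G protein signalling like Rgs5, -1.10 for Ntrk2, the receptor of brain-derived neurotrophic factor, -1.08 for the matricellular gene Cyr61, -1.05 for Morn5 and -0.998 for Kng2, with adjusted p between 0.0822 and 0.323. Rgs16 had 2.44, 2.47, 1.39 and 3.95 RPKM in KO-Bleo and 0.941, 1.38, 0.772 and 0.653 RPKM in KO-Sal, against 5.46, 9.92, 5.75 and 5.84 RPKM in WT-Bleo and 0.934, 0.745, 0.62 and 0.354 RPKM in WT-Sal, and its WT-Bleo values lay above those of the other 12 libraries. Among the 2167 genes called higher with bleomycin in knockout lungs, the median change was 0.46 in knockout lungs and 0.50 in wildtype lungs, and among the 3045 called higher in wildtype lungs it was 0.32 in knockout lungs and 0.47 in wildtype lungs. The medians 0.46 and 0.50 cover genes chosen by the knockout change, and 0.32 and 0.47 cover genes chosen by the wildtype change.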
